A study of Drosophila melanogaster with 91 samples.

Results

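The mitochondrial ribosomal proteins build the ribosome inside mitochondria, which translates the few messages encoded by mitochondrial DNA. The proteins themselves are encoded in the nucleus, made in the cytosol and imported. Inside the organelle they assemble on mitochondrially encoded ribosomal RNAs into a large and a small subunit. The products of this ribosome are core subunits of the respiratory chain and of the ATP synthase. In the fly egg, mitochondria and a store of messages are supplied by the mother, and the embryo's own transcription takes over around cellularization, when the shared cytoplasm of the early embryo is partitioned into cells.

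The members were all genes of the count table whose FlyBase symbol begins with mRpL (large subunit) or mRpS (small subunit). The rule found 71 genes of 15682, and by symbol alone 47 were counted in the large and 24 in the small subunit. The name table holds 73 such symbols; mRpS5 and mRpS34 were not analysed here. By the numbering of the human mitochondrial ribosome, 44 members have a counterpart in bacterial ribosomes and 27 are found only in mitochondrial ribosomes. A further pair of mitochondrial ribosomal proteins carries other symbols, tko (counterpart of bacterial S12) and bonsai (counterpart of S15), and were kept apart from the family.

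The samples were 91 single whole embryos of Drosophila melanogaster, of a strain the labels do not name. Embryos carried no labelled mutation or treatment. Each was kept at 25°C after dechorionation and frozen at a set time from its own cellularization. A single embryo was taken every 15 min, the first at -15 min and the last at 1335 min. For comparison, times were divided into 7 windows of 13 embryos: window 1 (-15 to 165 min), window 2 (180 to 360), window 3 (375 to 555), window 4 (570 to 750), window 5 (765 to 945), window 6 (960 to 1140) and window 7 (1155 to 1335). Embryos of a window are neighbours in time and not replicates of 1 time, so the spread within a window holds development as well as error. RNA was sequenced by CEL-Seq, which tags each embryo's RNA with a barcode and reads transcripts at the 3' end next to the poly(A) tail, so levels are not divided by gene length. Because whole embryos were used, fewer cells of a type and less RNA per cell cannot be told apart.

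Gene counts per embryo had a median of 1644069 and ran from 3662 to 3308015. The embryo at 120 min was the shallowest and held 8 member counts, so its levels are left out of window means and plots, while the tests include it unless stated. The library index given for each embryo followed time, and embryos with the same index are taken here as a pool. The pools were pool 4 (-15 to 315 min), pool 5 (330 to 645), pool 6 (660 to 990) and pool 7 (1005 to 1335). Pools 4 and 5 were in sequencing lane 3, and pools 6 and 7 in lane 4. Pool therefore cannot be told apart from time across most of the course. In 27 libraries the added spike-in RNAs took over 6% of gene and spike-in counts. Stage markers ran as the labels order them: all 3 egg-supplied genes tested fell from window 1 to window 2, and all 4 muscle and all 4 neuron genes tested rose from window 1 to window 7. None of the 4 yolk protein and eggshell genes listed as signs of maternal ovary tissue passed the filter on low counts.

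The members were modest in level. Together they took 0.244% of all gene counts, with a median of 4352 counts per embryo. The median over the 68 members that passed the filter on low counts was 28.6 CPM (counts over the embryo's fly gene counts, times 1000000), beside 21.7 CPM over all genes that passed it. The cytosolic ribosomal proteins, which build the ribosome of the cytosol, had a median of 2616 CPM. The subunits of respiratory complex I stood at 83.5 CPM.

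The highest members were mRpL12, mRpS7, mRpL22, mRpS17 and mRpL49, at 149, 92.6, 82.6, 78.2 and 66.1 CPM on average over 90 embryos. mRpL12 forms the flexible stalk that recruits translation factors to the large subunit. mRpS7 and mRpS17 are small-subunit proteins with bacterial counterparts, and mRpL22 lines the tunnel through which the new chain leaves. In window 2 the next 3 genes differed by less than their spread: mRpS7 stood at 105 ± 24.5 CPM, mRpL22 at 101 ± 26.9 CPM and mRpS17 at 102 ± 23.1 CPM (SD, n = 13). In the 5 earliest embryos they did not all overlap, with mRpS7 between 140 and 256 CPM, mRpS17 between 140 and 187 CPM and mRpL22 lower, between 19.8 and 114.6 CPM. mRpL12 lay above all 3 there, at 338 to 549.7 CPM.

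The lowest members were mRpL53, mRpS24, mRpS9, mRpL48 and mRpL4. mRpL53 had 0 counts in all 91 embryos, which allows a level of up to 0.0197 CPM, for counting error only. In the reference annotation it shares exon sequence with 1 gene on its own strand and 1 on the opposite strand. Of all counts, 2.44% were ambiguous between genes, and the part of this in the 0 was not tested. mRpS24 had 111 counts in all and was seen in 30 embryos. mRpS9 had 256 counts and was seen in 55. These 3 genes did not pass the filter on low counts. mRpL48 averaged 5.67 CPM and mRpL4 8.46 CPM. Overlap is common in the family: 42 of 71 members share exon sequence with another gene, 41 of them with a gene on the opposite strand, and whether the counting used strand is not given in the sources used here.

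The summed level of the 71 genes was highest in the earliest embryos. In the 5 embryos from -15 to 45 min it ran from 3725 to 4798 CPM with a mean of 4169 ± 408 (SD). In the 7 embryos from 60 to 165 min it ran from 748 to 2813 CPM with a mean of 2099 ± 662 (SD). No embryo of the second set reached the lowest of the first; this division was chosen after the values were seen and has no test. Over the windows the sum was 2962 ± 1198 CPM (SD, n = 12) in window 1, then 2379.6 ± 416, 2002 ± 791, 2275 ± 1055, 2666 ± 719, 1875 ± 838 and 1754 ± 616 CPM in windows 2 to 7 (SD, n = 13 each). From window 2 onward the windows overlapped throughout.

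The sum moved with the spike-in share of the library. Over 90 embryos the correlation between them was -0.68 (Pearson) and -0.80 (Spearman), given as a description. The Spearman value was negative in every window, from -0.48 to -0.92. The 64 libraries with up to 6% spike-ins had a mean sum of 2686 ± 662 CPM, and the 27 libraries over 6% had 1267 ± 498 CPM (SD). In the 64 libraries alone the window means were 3163, 2442, 2552, 2752, 2814, 2556 and 2277 CPM. The part of spike-in share in the levels was not tested. A step also fell at the border between pools 5 and 6, where the sequencing lane changes too. The 6 embryos from 570 to 645 min, the last of pool 5, had 1551 ± 645 CPM. The 7 from 660 to 750 min, the first of pool 6, had 2895 ± 951 CPM (SD). Their spike-in shares were 7.86 ± 2.73% and 4.59 ± 0.754% (SD).

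**Figure D1:**
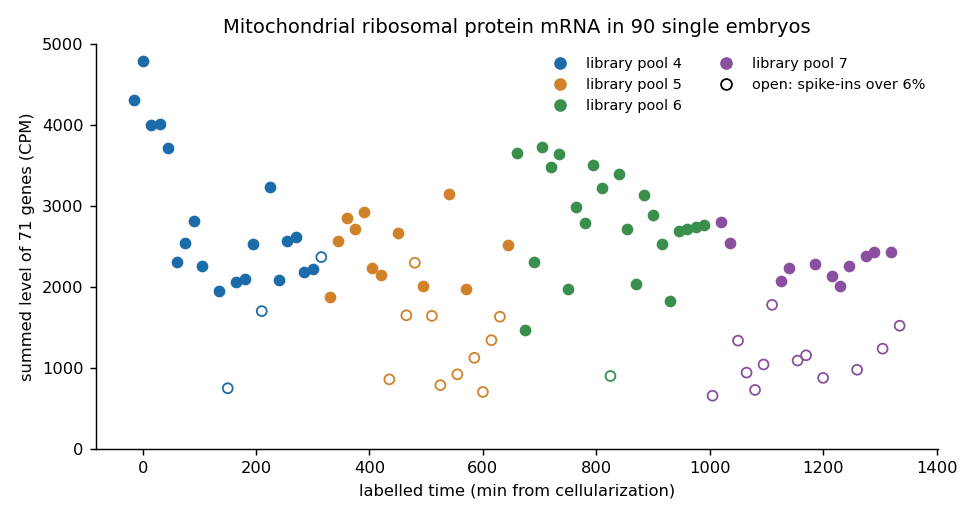
Summed level of the 71 mitochondrial ribosomal protein genes in each of 90 embryos (CPM, vertical axis) against labelled time in min (horizontal axis), coloured by library pool, with open circles for libraries in which spike-ins took over 6% of counts. The 5 earliest embryos lie between 3725 and 4798 CPM, and the open circles lie between 656 and 2370.3 CPM.

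Over the whole course the family varied less than most genes. A smooth curve of time (natural cubic spline with 5 degrees of freedom) was fitted to every gene with edgeR's quasi-likelihood test, and a gene was called at a Benjamini-Hochberg adjusted p under 0.05 over all genes tested. Of 68 members tested, 28 varied with time (41.2%), beside 82.1% of all 8717 genes tested. The span of a member's curve, its highest minus its lowest point, had a median of 1.44 on the log2 scale, beside 3.17 for all genes. Of the 68 members, 67 had a span under the median of all genes. A span takes up noise and is above 0 even for a gene that does not change.

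Counts for other lists of the same organelle differed widely, and no difference between lists was tested. All 32 tested subunits of complex I and all 32 of complexes II, III, IV and the ATP synthase varied, with median spans of 2.21 and 2.32. Of the cytosolic ribosomal proteins 76 of 78 varied, with a median span of 1.91. The respiratory and cytosolic ribosomal lists stand at higher CPM than the members; the part of level in these counts was not tested. Of the mitochondrial import proteins 7 of 13 varied (median span 1.25), and of the mitochondrial translation factors 6 of 9 (1.98). Of the mitochondrial aminoacyl-tRNA synthetases, which charge transfer RNAs, 1 of 7 varied (1.85), of the genes for mitochondrial DNA and RNA maintenance 10 of 18 (2.15) and of the messages encoded by mitochondrial DNA 11 of 13 (1.19). Within the family, 20 of 46 large-subunit and 8 of 22 small-subunit members varied, and 14 of 26 mitochondria-specific members against 14 of 42 with a bacterial counterpart. Neither tko nor bonsai was called (adjusted p = 0.0765 and 0.17, edgeR).

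Library pool limits this result. With pool as a term in the model, 0 of 68 members were called by edgeR, and 2 had an unadjusted p under 0.05, while 3146 of all genes were still called. Fitted inside each pool, 7 members were called in pool 4, beside 3412 of 7573 genes, and 0 members in pools 5, 6 and 7, where no member had an unadjusted p under 0.05 and the calls over all genes were 0, 5 and 2.

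**Figure D2:**
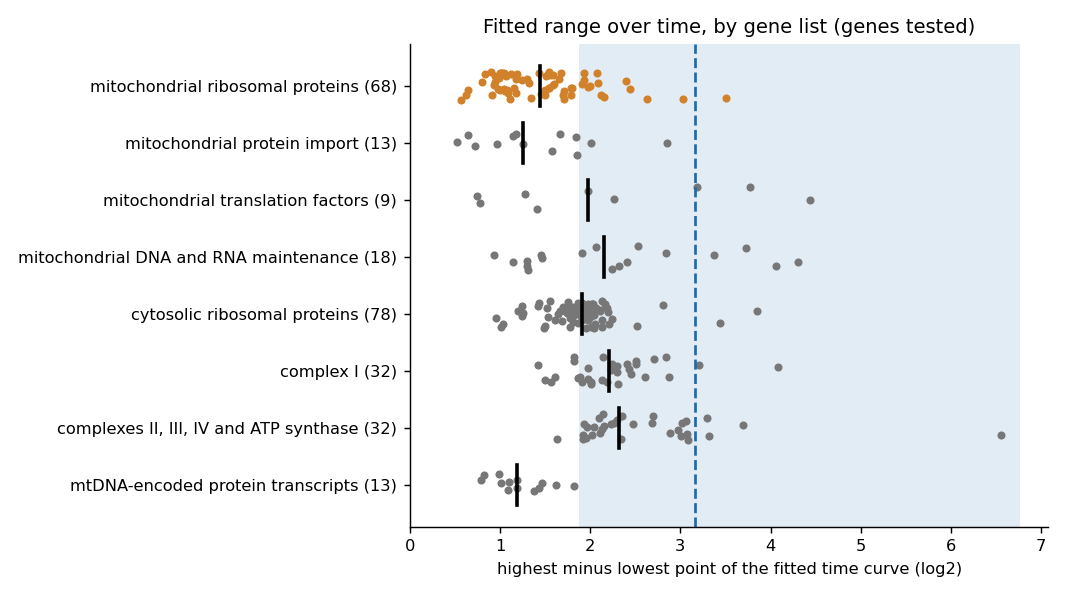
Span of the fitted time curve (log2, horizontal axis) for each tested gene of 8 lists, with the number tested in brackets. Black bars are list medians, the dashed line is the median of all 8717 genes tested (3.17) and the shaded band their middle 50 percent; the mitochondrial ribosomal proteins (orange, median 1.44) lie mostly to the left of the band.

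The 10 members with the smallest p were mRpL28, mRpL3, mRpL45, mRpS6, mRpL37, mRpL22, mRpL39, mRpL40, mRpL20 and mRpL10, and only mRpS6 belongs to the small subunit. mRpL28 had the smallest (adjusted p = 8.71e-07, edgeR, span 3.03). In window 1 it ran from 16.4 to 111 CPM with a median of 57.3 CPM. In window 3 it ran from 0 to 47.8 CPM with a median of 15.9 CPM. In window 5 it ran from 13.8 to 107 CPM with a median of 77.4 CPM, so that it was high early, low in the middle and high again late, with windows 3 and 5 overlapping. mRpL20, a large-subunit protein with a bacterial counterpart that binds ribosomal RNA, had the widest span of the family (3.51, adjusted p = 0.000756, edgeR). Its median was 11.9 CPM in window 1, 0 CPM in window 3 and 18.9 CPM in window 5.

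The proteins at the exit of the large subunit were led by mRpL45 and mRpL22. mRpL45, which in mammals ties the ribosome to the inner membrane, had a span of 1.5 (adjusted p = 0.000301, edgeR). It ran from 11.5 to 189 CPM in window 1 (median 63.3 CPM) and from 4.65 to 63.1 CPM in window 3 (median 34.9 CPM). mRpL22 had a span of 1.71 (adjusted p = 0.00048, edgeR) and the opposite order: its median was 46.4 CPM in window 1 and 103 CPM in window 2. Its spline call was lost under spike-in scaling (adjusted p = 0.538) and with no scaling beyond gene totals (adjusted p = 0.541). mRpL23, mRpL24 and mRpL47, also around the tunnel exit, were not called in the spline; their window 1 means were 32.3 ± 15.5, 13.3 ± 11.7 and 10.2 ± 9.22 CPM and their window 7 means 32.8 ± 16.9, 11.2 ± 5.15 and 13.3 ± 9.36 CPM (SD, n = 12 and 13).

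Of the remaining members with small p, mRpL3, which binds ribosomal RNA in the core of the large subunit, had medians of 22.3 CPM in window 2 and 43.0 CPM in window 4 (span 1.6, adjusted p = 8.48e-05, edgeR). mRpS6, of the small-subunit platform, had medians of 61.5, 28.7 and 50.6 CPM in windows 1, 3 and 5 (span 1.43, adjusted p = 0.000315, edgeR). mRpL39, a mitochondria-specific protein related to threonyl-tRNA synthetase, went the other way from mRpL37 and mRpL40. Its median was 64.1 CPM in window 1, 35.0 CPM in window 2 and 20.1 CPM in window 7 (span 1.54, adjusted p = 0.00058, edgeR).

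The other 18 members called in the spline had adjusted p from 0.00143 to 0.0409 (edgeR). From the large subunit they were mRpL42, mRpL43, mRpL2, mRpL38, mRpL30, mRpL1, mRpL49, mRpL55, mRpL27, mRpL12 and mRpL41, and from the small subunit mRpS26, mRpS17, mRpS33, mRpS2, mRpS29, mRpS25 and mRpS21. mRpL2 binds the catalytic centre of the large subunit, and mRpS29 is the counterpart of the human GTP-binding protein DAP3. mRpS17 had a median of 132 CPM in window 1 and 45.2 CPM in window 7. Its span over the whole course with TMM scaling was 1.00 (adjusted p = 0.00637, edgeR). That p does not test the drop in CPM, which has no TMM scaling. mRpS7 had medians of 149 and 45.8 CPM and was not called with TMM scaling (adjusted p = 0.109, span 0.99), yet was called with median-of-ratios scaling (0.000773), gene totals (9.45e-08) and spike-ins (5.42e-06).

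The mean level of a member peaked most often at the start or near the middle of the second part of the course. By mean CPM, 35 of the 68 tested members were highest in window 1 and 21 in window 5, beside 3225 and 1289 of 8717 genes tested (37.0% and 14.8%). These are 51.5% and 30.9% of the members. Window 7 was the highest for 2 members, mRpL37 and mRpS26 (2.94%), beside 17.8% of genes. The order of windows follows mean CPM alone, which moved with spike-in share as described above, and has no test.

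At the other end, mRpS11, mRpL18, mRpS18C, mRpS35 and mRpL4 had the largest p, from 0.62 to 0.902 after adjustment (edgeR). mRpS11, a platform protein next to the messenger, had a span of 0.57, the smallest of the family, with medians of 38.9 CPM in window 1 and 17.7 CPM in window 7. mRpL18 ran from 0 to 35.0 CPM in window 1 and from 0 to 18.9 CPM in window 7. A p that misses the threshold does not show that these genes held steady.

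**Figure D3:**
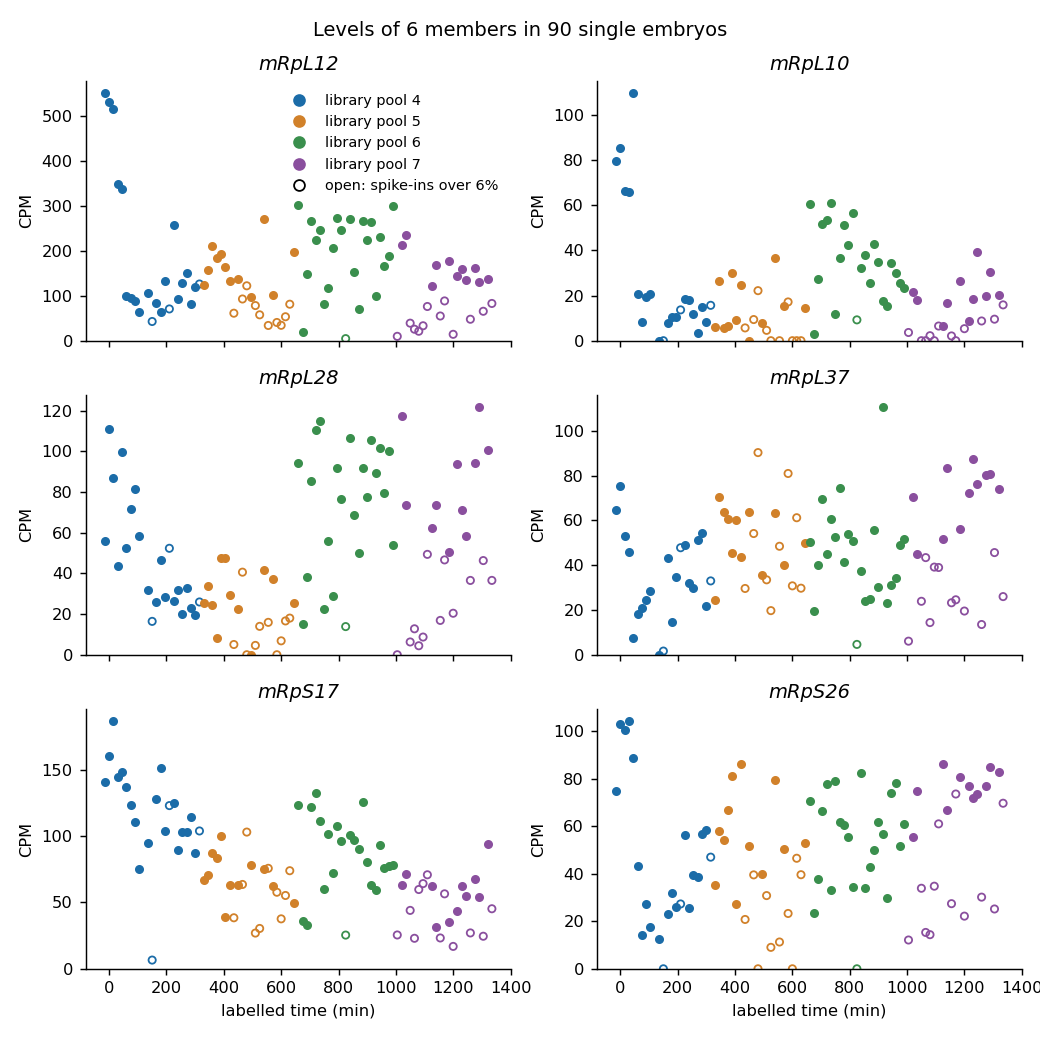
Level (CPM, vertical axes) of mRpL12, mRpL10, mRpL28, mRpL37, mRpS17 and mRpS26 in 90 embryos against labelled time in min, coloured by library pool, with open circles for libraries over 6% spike-ins. mRpL12 and mRpL10 are highest in the 5 earliest embryos, mRpS17 is lower late than early, and mRpL28 and mRpL37 are high in pool 7 libraries with few spike-ins.

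Inside window 1, 4 members fell with time and none rose. These counts were read against 17.0% of all genes tested that fell and 4.41% that rose (edgeR). The members were mRpL12 and mRpL10, which together make the stalk of the large subunit, and the mitochondria-specific small-subunit proteins mRpS23 and mRpS26. The 4 that fell are 5.88% of the 68 tested; DESeq2 called 24 members, beside 2775 of 6483 genes called in either direction. Over all members, 55 of 68 had a negative slope and the median slope was -0.29 log2 per 60 min, beside -0.21 for all genes.

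mRpL12 was at 549.7, 531, 514, 348 and 338 CPM at -15, 0, 15, 30 and 45 min. From 60 to 165 min it lay between 42.7 and 105 CPM with a median of 88.7 CPM. The slope was -0.88 ± 0.21 log2 per 60 min (SE, adjusted p = 0.00661, edgeR), and the 2 sets of embryos did not overlap. mRpL10, which holds mRpL12 at the base of the stalk, was at 79.6, 85.6, 66.5, 65.9 and 109.6 CPM in the 5 earliest embryos. It lay between 0 and 20.8 CPM in the next 7, with a slope of -1.41 ± 0.39 (SE, adjusted p = 0.0176, edgeR).

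mRpS23 was at 38.5, 49.9, 32.6, 19.2 and 19.8 CPM in the 5 earliest embryos and between 0 and 8.91 CPM in the next 7. Its slope was -1.48 ± 0.41 (SE, adjusted p = 0.0172, edgeR). mRpS26 was at 74.8, 103, 101, 104 and 89.0 CPM in the 5 earliest embryos and between 0 and 43.4 CPM in the next 7. Its slope was -0.93 ± 0.31 (SE, adjusted p = 0.0402, edgeR). In later embryos mRpS26 was high again, with a median of 73.6 CPM in window 7. The third stalk-region protein, mRpL11, was not called here.

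The early step was not particular to the family. Of 68 members tested, 16 (23.5%) had all 5 earliest embryos above all of the next 7, beside 1688 of 6483 genes (26.0%). The ratio of means between the sets had a median of 1.79 over members and 1.75 over genes. The mean spike-in share was 3.79 ± 0.766% in the 5 earliest and 5.10 ± 1.34% in the next 7 (SD); its part was not tested. The number of members that fell ran from 4 to 24 over the tools and scalings tried. The calls over all 6483 genes, in either direction, ran from 1386 to 2775.

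From window 1 to window 2, 1 of 67 members rose and 4 fell, beside 11.1% of all genes tested that rose and 14.0% that fell (edgeR). mRpL22 rose by 1.00 ± 0.31 (log2, SE, adjusted p = 0.019), from a median of 46.4 to 103 CPM, and the windows overlapped. The members that fell were all of the large subunit. mRpL1, of the mobile stalk where spent transfer RNA leaves, changed by -1.14 ± 0.40 (SE, adjusted p = 0.0376, edgeR). It ran from 8.2 to 80.8 CPM with a median of 50.2 in window 1 and from 0 to 27.0 CPM with a median of 17.3 in window 2. mRpL11, at the base of the factor-binding stalk, changed by -0.84 ± 0.31 (SE, adjusted p = 0.046, edgeR), with medians of 21.3 and 11.3 CPM. mRpL39 changed by -0.83 ± 0.23 and mRpL28 by -0.78 ± 0.27 (SE, adjusted p = 0.0076 and 0.0341, edgeR). The calls changed without the embryo at 120 min, when 3 members rose and 2 fell. Within pool 4 alone 1 rose and 0 fell, and with spike-in scaling 0 members were called. Over all genes tested 26.0% were called without the embryo at 120 min, 17.1% within pool 4 and 13.9% with spike-in scaling.

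In the 5 later steps between neighbouring windows no member was called by edgeR. The calls over all genes were 3.52% from window 2 to window 3, 0.27% from window 3 to window 4, 0.0956% from window 4 to window 5, 0.549% from window 5 to window 6 and 0.0% from window 6 to window 7. At an unadjusted p under 0.05, there were 5 of 66 members beside 1060 of 5682 genes from window 2 to window 3, where DESeq2 called 1 member and limma voom 2. In the next 4 steps there were 3 of 65 members beside 827 of 5546 genes, 0 of 67 beside 1023 of 6275, 2 of 67 beside 1089 of 6198 and 0 of 66 beside 781 of 6151. DESeq2 and limma voom called 0 members in each of these 4 steps.

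Some of these steps moved most members the same way without a call. From window 3 to window 4 the change was positive in 61 of 65 members with a median of 0.43 (log2). Over all genes tested it was positive in 2917 of 5546 with a median of 0.04. That step crosses from pool 5 to pool 6 and from lane 3 to lane 4. Within pool 5 the median was -0.15 with 48 of 66 members negative. From window 5 to window 6 the median was -0.27 with 58 of 67 members negative, beside 3168 of 6198 genes. Within pool 6 it was 0.25 with 52 of 68 members positive, and without libraries over 6% spike-ins it was 0.13 with 46 of 68 positive. From window 4 to window 5 the members' median was 0.35, beside 0.17 over all genes. Within pool 6 the members' median was -0.04, and without libraries over 6% spike-ins it was 0.14.

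Between the ends of the course, 17 of 68 members rose and 0 fell with TMM scaling, beside 31.7% of all genes tested that rose and 26.1% that fell (edgeR). The median change was 0.43 (log2), beside 0.08 over all genes. Without the embryo at 120 min 13 rose and 3 fell, with medians of 0.26 and -0.10. Falls also appeared without libraries under 548023 gene counts (15 rose, 3 fell) and with DESeq2 (12 and 5). They appeared with limma voom (20 and 5) and without libraries over 6% spike-ins (26 and 2) too. Over all genes 61.4%, 63.5%, 64.4% and 62.4% were called in the same order. Of those calls 49.6%, 43.7%, 54.7% and 51.5% were rises. Of the mitochondria-specific members 10 of 26 rose with a median of 0.82, and of those with a bacterial counterpart 7 of 42 rose with a median of 0.19. In the same comparison 74 of 77 cytosolic ribosomal proteins, 22 of 32 complex I subunits and 26 of 31 subunits of complexes II, III, IV and the ATP synthase rose.

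The direction of the members depended on the scaling. With median-of-ratios scaling 11 rose and 4 fell, with a median of 0.16 beside -0.28 over all genes. With no scaling beyond gene totals 0 rose and 24 fell, with a median of -0.55 beside -0.95. With spike-in scaling 0 rose and 18 fell, with a median of -0.91 beside -1.38. Over all genes these scalings called 59.1%, 66.6% and 61.7% in the same order, and 44.5%, 28.3% and 21.5% of the calls were rises. Most calls over all genes were thus also falls with gene totals and with spike-ins. The members' median minus that of all genes was 0.35, 0.44, 0.40 and 0.48 under TMM, median of ratios, gene totals and spike-ins, so it was positive in all 4 while the direction itself was not; with no filter on low counts it was -0.54. Library pool and lane differed between the ends of the course throughout.

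**Figure D4:**
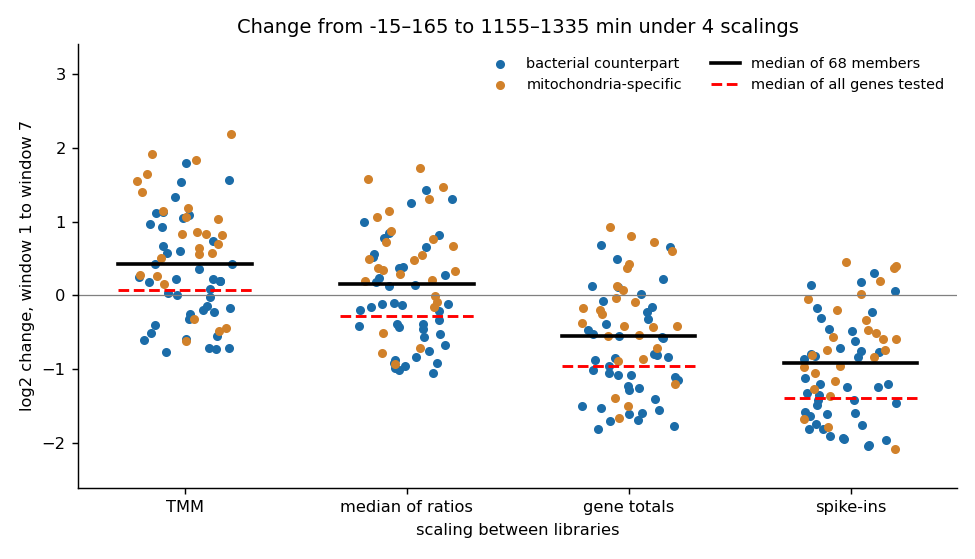
Log2 change from window 1 to window 7 (vertical axis) of the 68 tested members under 4 scalings between libraries (horizontal axis), blue for members with a bacterial counterpart and orange for mitochondria-specific ones. The black bar is the members' median (0.43, 0.16, -0.55 and -0.91) and the red dashed line the median of all genes tested (0.08, -0.28, -0.95 and -1.38).

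The largest rises with TMM were in mRpL38, mRpL37, mRpL43, mRpS2 and mRpL40. mRpL38, a mitochondria-specific protein that lies in the central protuberance in mammals, ran from 0 to 126 CPM with a median of 13.8 in window 1 and from 17.7 to 91.3 CPM with a median of 65.4 in window 7 (2.19 ± 0.59 log2, SE, adjusted p = 0.00209, edgeR). mRpL37, also mitochondria-specific, ran from 0 to 75.5 CPM with a median of 26.5 and then from 13.5 to 87.2 CPM with a median of 56.2 (1.91 ± 0.46, SE, adjusted p = 0.000853, edgeR). For both genes the windows overlapped. Window 1 held unlike embryos. The mRpL37 median was 53.2 CPM in the 5 earliest embryos and 21.1 CPM in the next 7. The mRpL38 medians were 39.0 and 4.19 CPM in the same sets. For both genes the window 7 median lay nearer to that of the earliest embryos. mRpL43 changed by 1.83 ± 0.59, mRpS2 by 1.79 ± 0.55 and mRpL40 by 1.65 ± 0.31 (log2, SE, adjusted p = 0.00916, 0.00625 and 4.26e-05, edgeR). All 5 calls held with median-of-ratios scaling. With gene totals their changes were 0.93, 0.81, 0.73, 0.68 and 0.59 in the order mRpL38, mRpL37, mRpL43, mRpS2 and mRpL40, and none was called; with spike-in scaling they were 0.39, 0.46, 0.37, 0.19 and 0.20, and none was called.

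The other 12 members that rose with TMM had changes from 0.64 to 1.56 (log2). They were mRpS26, mRpL22, mRpL28, mRpL2, mRpL55, mRpL48, mRpL23, mRpL47, mRpS22, mRpL3, mRpL49 and mRpS29. mRpL2 changed by 1.56 ± 0.47, mRpS26 by 1.54 ± 0.42 and mRpL47 by 1.54 ± 0.58 (SE, adjusted p = 0.00528, 0.00221 and 0.0238, edgeR). With no scaling beyond gene totals, the changes of mRpS22, mRpL3, mRpL49 and mRpS29 were -0.18, -0.22, -0.37 and -0.26, none of them called.

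The composition of the family does not depend on scaling between libraries, since it is a share of the members' own counts. Library pool and lane still differed between windows 1 and 7 throughout, and their part in the shares was not tested. The mitochondria-specific members took 31.4 ± 5.03% of the family's counts in window 1 (SD, n = 12) and 39.5 ± 4.21% in window 7 (SD, n = 13). Over these embryos the windows overlapped: the embryo at 150 min stood at 46.3% and the lowest of window 7 at 33.7%. In libraries with up to 6% spike-ins the shares were 30.1 ± 1.94% (SD, n = 11) and 38.2 ± 2.57% (SD, n = 7). There the highest embryo of window 1 stood at 33.1% and the lowest of window 7 at 33.7%, so the windows did not overlap. The window means between them were 32.4, 34.0, 34.8, 34.9 and 36.3%. The small-subunit members took 35.2 ± 3.86% in window 1, 37.3 ± 1.43% in window 2 and 31.0 ± 2.37% in window 7 of the same libraries (SD, n = 11, 11 and 7).

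Single members behind this shift were on both sides. In libraries with up to 6% spike-ins, mRpL37 took 1.05% of the family's counts in window 1 and 3.32% in window 7. mRpS26 went from 1.58% to 3.45%, and these 2 genes were the members whose windows did not overlap upward. mRpL38 went from 1.06% to 3.24% and mRpS2 from 0.531% to 1.49%. mRpL22 and mRpL28, which have bacterial counterparts, went from 1.86% to 3.53% and from 2.09% to 3.69%. In the other direction, mRpS7 went from 5.20% to 2.14%, mRpL39 from 2.29% to 1.05% and mRpS17 from 4.36% to 2.57%. mRpL12 had the largest mean share in both windows, 7.07% and 6.58%, but not throughout window 1. In the 7 embryos from 60 to 165 min, of any spike-in share, its mean level was 82.4 CPM. There mRpS7, mRpL33 and mRpS17 were higher, at 117, 103 and 96.5 CPM. These examples were chosen after their values were seen, and the shares have no test.

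**Figure D5:**
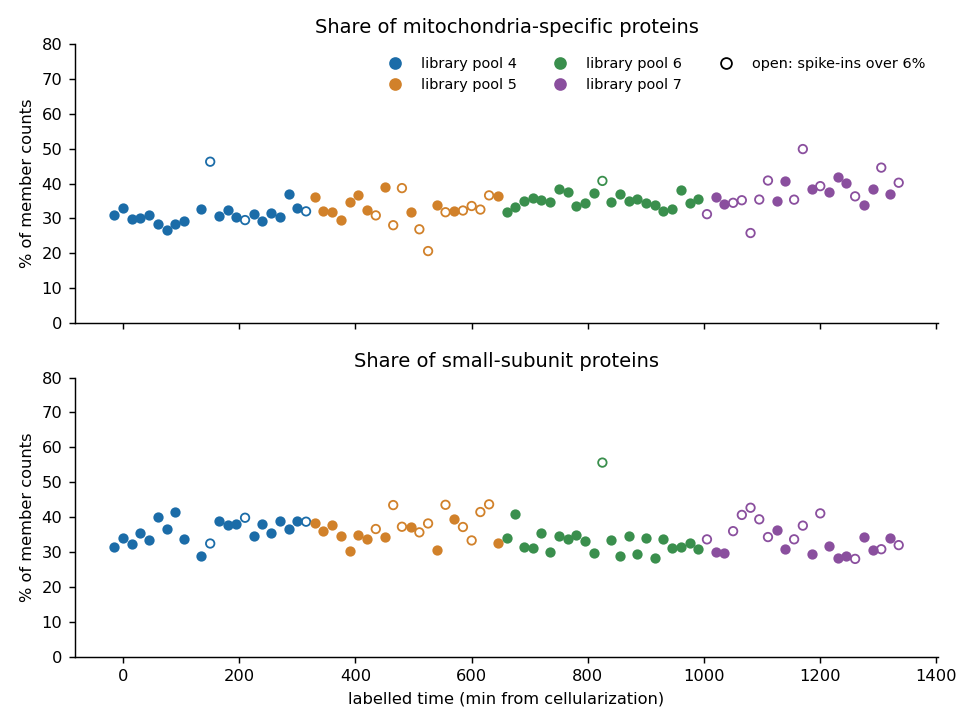
Share of the family's counts (percent, vertical axes) taken by mitochondria-specific members (top) and by small-subunit members (bottom) in 90 embryos against labelled time in min, coloured by library pool, with open circles for libraries over 6% spike-ins. The mitochondria-specific share goes from 30.1% to 38.2% between windows 1 and 7 in libraries with few spike-ins, while the small-subunit share goes from 35.2% to 31.0%.

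The 3 members that descend from a single bacterial S18 protein, mRpS18A, mRpS18B and mRpS18C, are separate genes, counted here with the small subunit by symbol. mRpS18A stood at 45.8 ± 33.2 CPM in window 1 and 14.1 ± 10.9 CPM in window 7, and mRpS18B at 46.3 ± 25.6 and 13.9 ± 11.0 CPM. mRpS18C was lower at the start, at 21.9 ± 17.0 CPM, reached 30.0 ± 12.9 CPM in window 2 and stood at 11.4 ± 5.36 CPM in window 7 (SD, n = 12 or 13). None of the 3 was called over the course. In the 5 embryos from -15 to 45 min mRpS18A stood at 79.1 ± 22.0 CPM (SD, 50.3 to 102) and mRpS18B at 66.2 ± 15.7 CPM (47.0 to 80.8). mRpS18C was lower there, at 31.5 ± 14.0 CPM (18.0 to 51.5), and the ranges met at their edges. Differences between the 3 genes were not tested.

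The ribosome's partners were measured in the same embryos. The mitochondrial large ribosomal RNA, mt:lrRNA, which forms the core of the large subunit, was at 107182 ± 29575 CPM in window 1 and 79854 ± 17954 CPM in window 7 (SD). The small one, mt:srRNA, was at 3751 ± 5590 and 1520.3 ± 2648 CPM (SD), and neither was called between the ends of the course. Since the reads come from polyadenylated 3' ends, these values give no measure of the subunits' RNA. Between the ends of the course 31.7% of all genes tested rose and 26.1% fell. Of the 7 translation factors tested there, 1 rose and 2 fell. mEFTu1, an elongation factor that delivers transfer RNA, rose by 0.93 ± 0.28 (adjusted p = 0.00571, edgeR). mRRF1, which recycles ribosomes, changed by -1.39 ± 0.47 (adjusted p = 0.0117, edgeR), and GatA, needed to charge glutamine transfer RNA in mitochondria, by -1.38 ± 0.49 (adjusted p = 0.0178, edgeR). Of 13 tested genes for mitochondrial DNA and RNA maintenance 1 rose and 4 fell, among them TFAM, which packages mitochondrial DNA and changed by -1.61 ± 0.34 (log2, SE, adjusted p = 0.000186, edgeR), from 120.1 ± 64.8 to 18.8 ± 9.36 CPM (SD). The falls in both lists were near the share over all genes. These values hold for TMM scaling.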

How the data were processed

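Single-embryo CEL-Seq libraries of 91 embryos were analysed from 1 table of raw counts per gene that the authors deposited without normalization. Per the submitters' processing notes, CASAVA 1.8, Bowtie2 2.1.0 and HTSeq 0.5.4p3 were used with genome build BDGP5; the sources used here give neither the strand setting nor any handling of molecular identifiers. Fly genes took 60.7% of counts; lines that name no gene (no feature 16.6%, ambiguous 2.44%, not aligned 17.1%) and spike-ins (3.29%) stayed out of library sizes. CPM are counts over each embryo's fly gene total, times 1000000. They carry no TMM scaling, so a change in CPM is not the change that a test measured. Tests used edgeR 4.0.16 in R 4.3.3 (quasi-likelihood, TMM scaling, filterByExpr, Benjamini-Hochberg over all genes tested); genes entered the spline by a filter over the 7 windows. DESeq2 1.42.0, limma voom 3.58.1, other scalings, filters and left-out libraries were alternatives. The fits were tested on simulated data, where the spline missed many changes as small as the members' spans. SE of a log2 change is its size over the root of F. Exon overlaps came from a later annotation, BDGP6, used for names and neighbours only. Members and gene lists were chosen with earlier results of these data known. Named members were the extremes of p, change and level, plus the stalk, exit and S18 members. 1 embryo stood at each time, so p-values measure spread between single embryos.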

Additional observations from a re-analysis of the deposited data

How the results depend on the processing

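Of 68 members tested in the spline 28 were called, and DESeq2 called 45 and limma voom 48, beside 7814 and 7885 of 8717 genes; with pool as a covariate 0 were called, and within pools 4, 5, 6 and 7 there were 7, 0, 0 and 0. In the trend of window 1, 4 calls became 24 with DESeq2, 14 with median-of-ratios scaling and 16 with spike-in scaling. They became 14 with no scaling beyond gene totals, 13 with limma voom and 7 without libraries over 6% spike-ins. Over all 6483 genes, 1386 calls became 2775, 2157, 2093, 2148 and 2198 in that order, and 2158 of 6851 in the last setting. From window 1 to window 2, 5 calls became 16 with DESeq2, 0 with spike-in scaling and 15 with limma voom. Within pool 4 there was 1, which rose, and without the embryo at 120 min there were 5, of which 3 rose. Over all 5739 genes, 1440 calls became 2180 with DESeq2, 799 with spike-in scaling and 2209 with limma voom. They were 1030 of 6017 within pool 4 and 1544 of 5940 without the embryo at 120 min. From window 2 to window 3, 0 calls became 1 with DESeq2, 2 with limma voom and 1 with no filter. Over all genes 200 calls became 442, 347 and 1572 in that order. From window 1 to window 7, 17 rises became 18 falls with spike-in scaling and 24 falls with no scaling beyond gene totals. Without libraries over 6% spike-ins they became 28 calls, 26 of them rises. Over all 5527 genes, 3191 calls became 3410 with spike-in scaling and 3680 with gene totals. Without libraries over 6% spike-ins they were 4763 of 7627. The causes were not tested. Another 66 counts stayed within 1.5 times. For single named members 213 values kept direction and call and 78 kept direction but lost the call. A spline span is never negative, so for spline values only the call could change. The tally leaves out members outside the largest changes of a comparison. Among those, mRpS22, mRpL3, mRpL49 and mRpS29 rose from window 1 to window 7 with TMM and had negative changes with gene totals. The alternatives with gene totals and without libraries over 6% spike-ins were chosen after seeing the data. Depth limits the low members: mRpS9 and mRpS24 did not pass the filter on low counts, and with no filter 70 members were tested. No paired analysis was possible because each time holds 1 embryo and replicate numbers only name embryos within a window.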
